A study of Homo sapiens with 6 samples.

Results

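Tight junction genes were examined in RNA-seq read counts of cells that the study describes as MDA-MB-231 PTX-resistant BCSC, with and without LINC00115 knockdown (KD). The group consisted of 9 of the 22989 genes in the deposited table, chosen by symbol: the claudins Cldn1, Cldn3, Cldn4, Cldn6, Cldn7 and Cldn12, the membrane proteins Ocln (occludin) and F11r (junctional adhesion molecule A), and the scaffold Tjp1 (ZO-1). MDA-MB-231 is an established line from a human triple-negative breast tumour, PTX stands for paclitaxel, and BCSC are its stem-like cells, sorted in the study for high aldehyde dehydrogenase activity. The 3 KD libraries came from cells with a short hairpin RNA against LINC00115, a long non-coding RNA. The 3 control libraries are labelled WT, whereas the study's text describes a control shRNA. All 6 libraries share the resistant line, and nothing in the labels says whether the replicates were separate cultures, so p-values measure the spread between these libraries, which may be technical.

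Tight junctions seal the space between neighbouring epithelial cells near their apical surface. Claudins form the strands and set which ions pass, occludin and junctional adhesion molecules sit beside them in the membrane, and ZO scaffolds tie the strands to actin by binding the claudin tail. Loss of claudins is a known trait of the claudin-low class of breast cancers, to which MDA-MB-231 is usually assigned.

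The libraries held between 36979221 and 38799331 counts. The rows are named after mouse genes, among them 4648 Gm and 1129 Rik names, so the counts follow a mouse gene annotation. A human sample is given in the labels, so how its reads came to be assigned to mouse genes is uncertain. The species of the sequenced cells was not tested. No row is named LINC00115, so the knockdown itself could not be checked and which group is which was taken from the labels. Markers of the labelled cells were uneven. Cd44, a stem-like cell marker, ranged from 877 to 963 normalized CPM (read counts scaled to library depth with TMM factors) in control libraries and from 872 to 892 in KD libraries. Krt8, a luminal keratin, was also abundant, at 472 ± 5.52 and 752 ± 23.2 normalized CPM (SD, n = 3 each). Itga6, an integrin of basal and stem-like cells, fell from 616 ± 7.74 normalized CPM to 454 ± 8.59 (SD, n = 3 each). Aldh1a1, an aldehyde dehydrogenase, had 12, 8 and 17 counts in control and 52, 39 and 41 in KD libraries. Aldh3a1, also an aldehyde dehydrogenase, had 804, 779 and 907 counts in control and 1295, 1188 and 1283 in KD libraries. Aldh3a1 was picked with its values in view. Aldh1a3, another aldehyde dehydrogenase of breast stem-like cells, had at most 4 counts in any library, and Epcam, an epithelial surface protein that stabilises claudins, had at most 5. Of the 16 mammary and stem-like cell markers listed, 7 were higher in KD libraries without overlap and 3 lower. Of all 22989 genes, 5873 were higher and 5689 lower in this way. The following were picked with their values in view. Mean normalized CPM in control and KD libraries was 279 and 155 for Cd24a, and 0.698 and 5.30 for the keratin Krt17. For the receptors Esr1 and Erbb2 it was 0.698 and 2.56, and 17.0 and 27.6. Pgr, also a receptor, had at most 3 counts in any library.

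A gene was called higher or lower in KD libraries at an adjusted p under 0.05 and a fold change over 2 in edgeR's quasi-likelihood test. Of the 9 genes, 4 passed the filter on low counts and were tested, of which 1 was called higher (Cldn12) and 1 lower (Ocln). Over all 13497 genes tested, 10.2% were called higher and 9.98% lower. Without overlap between the groups, 2 of the 4 were higher (Cldn12 and Tjp1) and 1 lower (Ocln), against 37.8% of tested genes higher and 37.8% lower. F11r and Tjp1 were estimated at 0.953-fold and 1.09-fold of the control level, and the other 5 claudins had 12 counts or fewer in every library.

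Cldn12, a claudin that lacks the usual tail motif for binding ZO scaffolds and takes part in calcium passage, had nearly all of the claudin reads. Its level was 59.4, 62.2 and 52.5 normalized CPM in the control libraries and 113, 124 and 115 in the KD libraries. Every KD library lay above every control library. The mean rose from 58.0 ± 5.01 to 118 ± 6.10 (SD, n = 3 each). In edgeR's quasi-likelihood test the log2 fold change was 1.02, with a standard error of 0.05, a 95% confidence interval of 0.91 to 1.13 and an adjusted p of 2.22e-18. The estimate thus lay close to the threshold of 2-fold. It was 0.95 without control replicate 3, 0.98 without KD replicate 2, 0.98 with upper quartile scaling and 0.9988 with library size alone, each below that threshold with an adjusted p of at most 3.36e-13 by the same edgeR test.

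Ocln, a membrane protein of the junction strands, had few reads and fell. The counts were 78, 70 and 116 in the control libraries and 27, 18 and 43 in the KD libraries. In normalized CPM these were 2.07, 1.85 and 3.07 against 0.698, 0.490 and 1.13, and the groups did not overlap. The mean fell from 2.33 ± 0.649 to 0.774 ± 0.328 (SD, n = 3 each). By edgeR this was a log2 fold change of −1.59, with a standard error of 0.36, a 95% confidence interval of −2.32 to −0.86 and an adjusted p of 0.000191. Replicate 3 was the highest of each group. Control replicate 3 also had the most reads of basal keratins, which were picked after their values were seen. Krt5 had 0, 0 and 92 counts and Krt14 had 7, 30 and 192 in the control libraries, against 0 and at most 31 in the KD libraries. Without that library the log2 fold change of Ocln was −1.34 (edgeR, adjusted p = 0.00579), still past both thresholds.

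**Figure D1:**
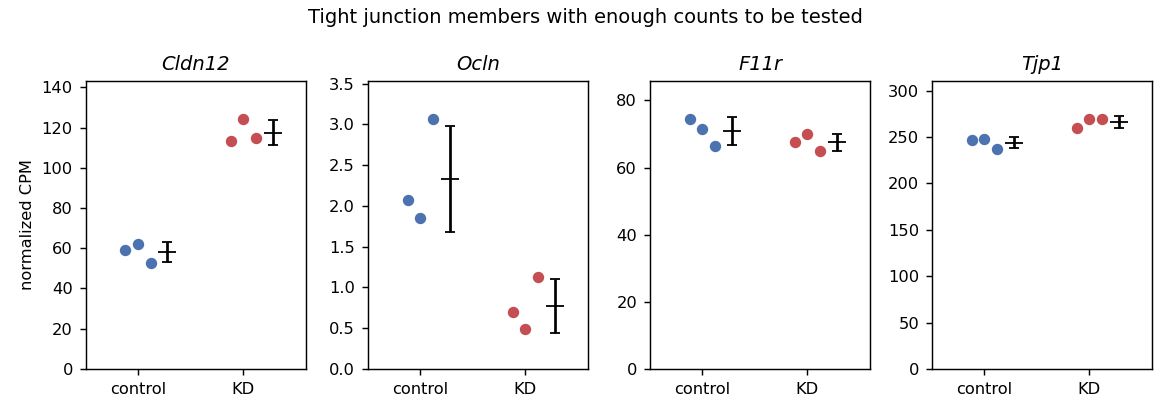
Normalized CPM (y axes, from 0) of the 4 tested genes in 3 control and 3 KD libraries, with 1 point per library and the mean ± SD (n = 3) beside each group. Cldn12 roughly doubled and Ocln fell with no overlap, F11r overlapped between the groups, and Tjp1 was higher in KD libraries by a log2 fold change of 0.13.

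Because Cldn12 and Ocln were the called members, the human promoter windows of both are shown (RefSeq, GRCh38.p14, plus strand, 250 bases before to 50 after the gene's start). The windows belong to the human genes of the same name, since the mouse-style symbols are not tied to positions by the table. Capitals mark CACCTG on either strand, the core bound by SNAIL and ZEB repressors of epithelial genes. The CLDN12 window is chr7:90403211-90403510 and the OCLN window is chr5:69492297-69492596.
CLDN12: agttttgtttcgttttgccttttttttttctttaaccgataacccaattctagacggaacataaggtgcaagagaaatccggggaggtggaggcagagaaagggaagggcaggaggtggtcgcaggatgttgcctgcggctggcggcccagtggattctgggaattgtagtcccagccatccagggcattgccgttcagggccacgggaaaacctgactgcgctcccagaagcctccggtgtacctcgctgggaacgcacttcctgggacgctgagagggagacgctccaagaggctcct
OCLN: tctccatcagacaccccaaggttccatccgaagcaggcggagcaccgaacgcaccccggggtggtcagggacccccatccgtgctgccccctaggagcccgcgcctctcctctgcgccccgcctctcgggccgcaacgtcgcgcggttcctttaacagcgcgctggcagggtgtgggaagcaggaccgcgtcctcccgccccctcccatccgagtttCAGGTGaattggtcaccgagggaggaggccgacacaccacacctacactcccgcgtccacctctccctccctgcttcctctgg
The OCLN window holds 1 such core, read as CAGGTG on the printed strand, and the CLDN12 window holds 0. Of the 9 genes, 8 had a window in the same set, and 4 of these (Cldn3, Cldn6, Ocln and Tjp1) held the core, against 20.6% of 35116 promoters. The core of the hypoxia response element, ACGTG on either strand, was in the window of Cldn3 and of none of the other 7, against 21.4% of promoters. These matches describe letters in a window.

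The remaining claudins of the group were close to absent. In the control libraries Cldn1, Cldn3 and Cldn7 had 0 counts throughout, which allows up to 3 counts a library or 0.0794 to 0.0796 normalized CPM, and Cldn4 and Cldn6 had 1 count each, in control replicate 3. In the KD libraries Cldn3, a sealing claudin and a receptor of a clostridial enterotoxin, had 7, 8 and 8 counts. Cldn4, its close relative and a receptor of the same toxin, had 12, 9 and 6. Cldn1, a claudin of the skin barrier, had 6, 5 and 1. Cldn7, a claudin that binds Epcam, had 1, 10 and 1, so that KD replicate 2 held most of its reads. Cldn6, a claudin of embryonic epithelia, had 1, 0 and 0.

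Cldn1, Cldn3, Cldn4 and Cldn7, 4 of the 5, were thus higher in KD without overlap and 0 were lower, whereas of the 8909 genes with a count but below the filter 8.68% were higher and 6.63% lower without overlap. Cldn7 and Cldn1 did so by 1 count in their lowest KD library. The 8909 genes include some with too few counts to separate 3 libraries from 3. Their shares may thus lie below those of genes with like counts, which were not computed. With 3 libraries against 3, an exact permutation test cannot give a p under 0.1. Set against a limit of 3 counts per library, the mean KD level was 2.56-fold that limit for Cldn3 and 1.33-fold for Cldn1. These ratios leave out counting error in the KD libraries. Without KD replicate 1 the mean of Cldn1 was 0.0813 normalized CPM, close to the limit. For Cldn7 the mean was 1.36-fold the limit with all libraries, but without KD replicate 2 its mean of 0.0261 normalized CPM lay under that limit. For Cldn4, 27 counts against 1 gave a ratio of 27.0, with a 95% interval of 4.44 to 1104 that covers counting error only.

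All 6 claudins of the group together were almost entirely Cldn12. Its share of their counts was 99.97% ± 0.0582 in control and 99.44% ± 0.172 in KD libraries (SD, n = 3 each, exact permutation p = 0.1, two-sided, the smallest this design allows). With all 20 claudin genes of the table as the denominator, the share was 94.9% ± 0.589 and 95.1% ± 0.664 (exact permutation p = 0.5), so the direction depended on the denominator.

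**Figure D2:**
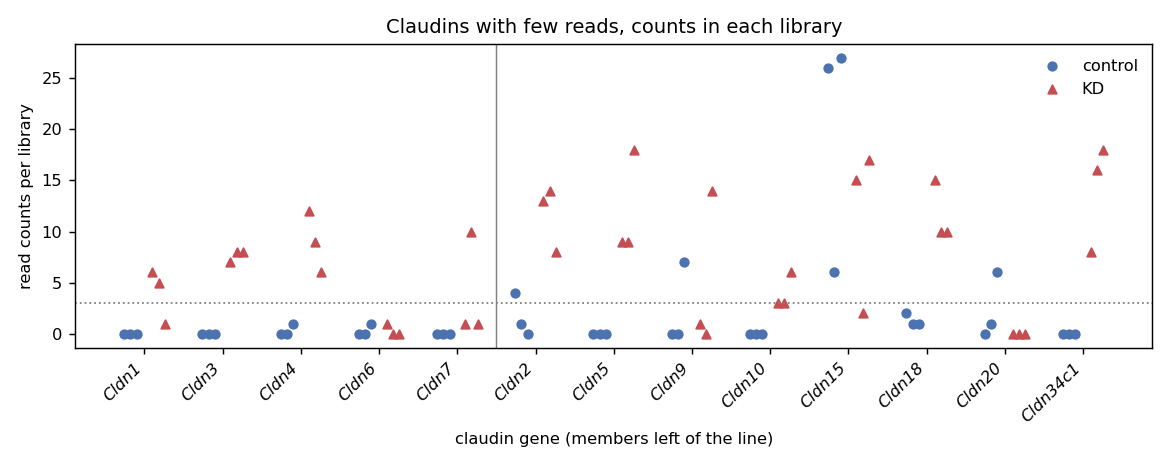
Read counts per library (y axis) of 13 claudins with few reads, with the 5 members left of the vertical line, control libraries as circles and KD libraries as triangles. The dotted line marks 3 counts, and Cldn3 and Cldn4 lay above it in every KD library and at or below 1 count in every control library.

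Some other claudins outside the group showed a similar picture. Of 22 listed, 14 had a row, and 13 of these had at most 30 counts in every library. Cldn5, the claudin of blood vessels, had 0 counts in each control library and 9, 9 and 18 in the KD libraries. Cldn18, which lung alveoli and stomach use, had 2, 1 and 1 counts in control and 15, 10 and 10 in KD libraries. Cldn2, a pore-forming claudin of kidney proximal tubule, had 4, 1 and 0 against 13, 14 and 8. Cldn10 and Cldn34c1 were also higher throughout the KD libraries, so that 5 of the 14 did not overlap in this direction and 0 in the other. Over all 22989 genes, 5873 were higher and 5689 lower without overlap. Cldn23 was the best covered after Cldn12, with 77, 109 and 78 counts in control and 169, 128 and 103 in KD libraries. The groups overlapped, and its log2 fold change was 0.59 with a standard error of 0.24 (edgeR, adjusted p = 0.0256). The adjusted p was 0.178 without KD replicate 1, 0.0744 without control replicate 1 and 0.0743 without control replicate 3 by edgeR. Cldn15, the other of the 2 tested, had 26, 6 and 27 counts in control and 15, 2 and 17 in KD libraries. Its log2 fold change was −0.80 (edgeR, adjusted p = 0.245), and the groups overlapped. Cldn20 had 0, 1 and 6 counts against 0, 0 and 0, and Cldn25 had 1 count, in control replicate 1.

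Many markers of other tissues were also higher in KD libraries. Over all 22989 genes, 5873 were higher and 5689 lower without overlap. Of 15 lung epithelium markers, 14 were higher in KD libraries without overlap, and their summed level was 8.29 to 8.60 normalized CPM in control and 85.4 to 95.6 in KD libraries. In the controls 8 of the 15 had no count, among them the defining Scgb1a1 and Sftpc, which reached 43.6 ± 4.68 and 14.7 ± 1.13 normalized CPM in KD libraries (SD, n = 3), while Rtkn2 overlapped between the groups. Of 13 kidney tubule markers, 11 were higher and 1 (Cubn) lower without overlap, with a summed level of 16.8 to 19.6 in control and 46.2 to 49.8 in KD libraries, and 7 of them, Kap included, had no count in the controls. Aqp1, a water channel and the most abundant of them, rose from 8.21 ± 1.40 normalized CPM to 16.4 ± 1.35, and Cubn, an endocytic receptor, fell from 8.28 ± 0.132 to 6.07 ± 0.361 (SD, n = 3 each).

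Endothelial and leukocyte markers gave fewer such genes. Of the 9 endothelial markers with a row, 2 were higher and 2 lower without overlap, against 5873 higher and 5689 lower of all 22989 genes. Cdh5 (VE-cadherin) rose from 0.221 ± 0.131 to 57.8 ± 1.45 normalized CPM (SD, n = 3 each). Egfl7, a secreted endothelial protein, was at 7.86, 9.64 and 10.1 normalized CPM in control and 7.81, 7.22 and 6.42 in KD libraries, a fall (edgeR, adjusted p = 0.0144). For Egfl7 the adjusted p by edgeR was 0.0829 without control replicate 3 and 0.0831 without KD replicate 3. Tie1, a receptor kinase of vessels, was called lower, with means of 0.574 ± 0.0855 and 0.188 ± 0.147 (SD, n = 3 each). It passed the low-count filter only through its control counts. The summed level was 9.71 to 11.5 in control libraries, mostly Egfl7, and 65.2 to 66.7 in KD libraries, mostly Cdh5. Vwf had 20, 15 and 11 counts in control and 19, 16 and 10 in KD libraries, Emcn had 1 count in all and Tek had at most 2 in a library. Of 10 leukocyte markers 2 (Lyz2 and Cd74) were higher and 1 (Csf1r) lower without overlap, with a summed level of 1.88 to 4.06 in control and 10.3 to 11.5 in KD libraries, and Cd3e had no count. Csf1r separated only after scaling to depth, from 2, 3 and 2 counts in control and 2, 0 and 1 in KD libraries. Laptm5, a lysosomal protein of blood cells, had 31, 21 and 6 counts in control and 1, 5 and 10 in KD libraries, which overlapped. The summed counts of Cldn1, Cldn3, Cldn4, Cldn6 and Cldn7 were 0, 0 and 2 in control and 27, 32 and 16 in KD libraries. The part of other cells in the counts of any claudin was not tested. In bulk RNA fewer cells of a type and less RNA per cell cannot be told apart.

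**Figure D3:**
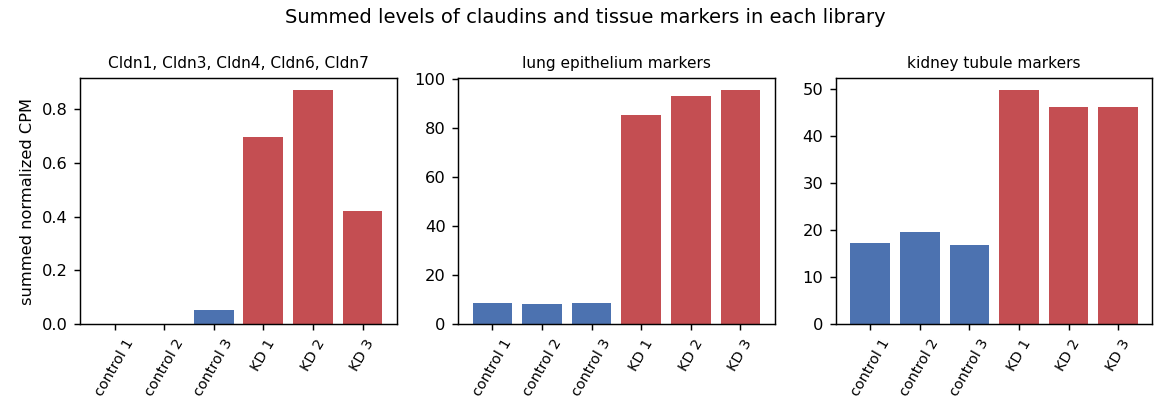
Summed normalized CPM (y axes, from 0, on separate scales) in each library for the 5 claudins with few reads, 15 lung epithelium markers and 13 kidney tubule markers. All 3 sums were higher in the KD libraries without overlap, and the claudin sum was the smallest by far.

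F11r, an adhesion molecule that helps place the junction, showed no detectable difference. It was at 74.6, 71.4 and 66.3 normalized CPM in control and 67.6, 69.9 and 64.9 in KD libraries, and the groups overlapped. The means were 70.8 ± 4.15 and 67.5 ± 2.51 (SD, n = 3 each). The log2 fold change was −0.07 with a standard error of 0.05 (edgeR, adjusted p = 0.230), and its 95% confidence interval of −0.17 to 0.04 runs from 0.886-fold to 1.03-fold.

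Tjp1, the ZO scaffold that claudin tails and occludin bind, was the member with the most reads and moved little. It was at 247, 248 and 237 normalized CPM in control and 259, 270 and 270 in KD libraries, with no overlap. The mean went from 244 ± 6.10 to 266 ± 6.10 (SD, n = 3 each), a rise of 0.13 on the log2 scale or 1.09-fold, which was not called. The standard error was 0.04, the 95% confidence interval 0.06 to 0.20 and the adjusted p 0.00168 by edgeR. Changes of any size past an adjusted p of 0.05 were common, with 36.7% of the tested genes higher and 36.7% lower, and 15.6% of them changed by less than Tjp1.

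The other tight junction genes mostly moved by less than 2-fold. Of the 60 with a row, 36 were tested, of which 1 was called higher and 1 lower, against 10.2% and 9.98% of all genes tested. With no fold threshold, 17 rose and 7 fell, against 36.7% higher and 36.7% lower of all genes tested. The median log2 fold change of the 36 was 0.19, against −0.01 over all genes tested. Marcks, a protein kinase C substrate that binds actin, fell from 49.1 ± 1.24 normalized CPM to 15.7 ± 1.28 (SD, n = 3 each), a change of −1.64 on the log2 scale (edgeR, adjusted p = 1.07e-20). Esam, an adhesion molecule of endothelial tight junctions, was called higher on 2, 14 and 10 counts in control and 24, 22 and 33 in KD libraries, but not without control replicate 1 or KD replicate 3 (edgeR, adjusted p = 0.110 and 0.0657). It passed the low-count filter only through its KD counts.

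Scaffold and polarity genes were 22 of the 36 other tight junction genes tested and 12 of the 17 that rose with no fold threshold. Among all genes tested, 36.7% rose and 36.7% fell in this way. Of the 22, 2 fell with no fold threshold, 0 were called either way, and the median log2 fold change was 0.26. The genes named next were picked with their values in view. Cgnl1 (paracingulin), an adaptor of apical junctions, rose from 137 ± 4.68 normalized CPM to 259 ± 3.74 (SD, n = 3 each), or by 0.92 on the log2 scale. Pard3, a polarity scaffold at the junction, rose by 0.75 and Afdn (afadin), which links nectins to actin, by 0.38 on the log2 scale. Tjp3 had at most 1 count in control libraries and 7, 8 and 5 in KD libraries. Llgl1, a basolateral polarity protein, fell by 0.71 on the log2 scale.

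Membrane proteins and regulators went both ways. Of 12 other membrane proteins of tight and tricellular junctions 3 were tested, and 10 had at most 30 counts in every library, including Marveld2 (tricellulin) with at most 7 and Jam3 with at most 3. Cxadr, an adhesion molecule that also serves as a virus receptor, fell from 123 ± 2.20 normalized CPM to 85.7 ± 2.80 (SD, n = 3 each), a change of −0.52 on the log2 scale. Of 9 regulators tested, 3 rose and 4 fell with no fold threshold, against 36.7% and 36.7% of all genes tested. Mylk, the myosin light chain kinase that opens junctions, rose by 0.95 and Rab13, a small GTPase of junction traffic, fell by 0.61 on the log2 scale.

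**Figure D4:**
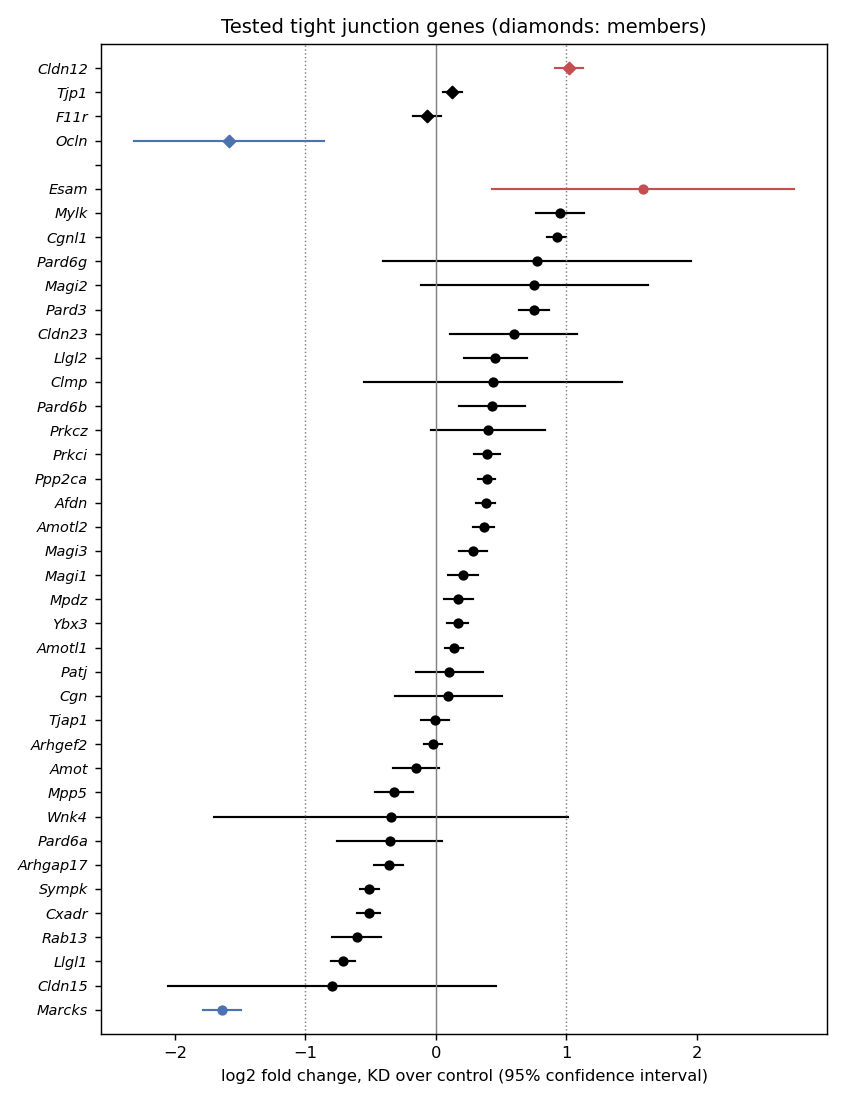
Log2 fold change of KD over control with its 95% confidence interval (x axis) for the 4 tested members (diamonds) and other tested tight junction genes (circles), with dotted lines at a 2-fold change. Red marks genes called higher (Cldn12, Esam), blue those called lower (Ocln, Marcks) and black those not called.

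Neighbouring junctions and the factors that set epithelial identity were compared on the same fit, in which 10.2% of all genes tested were called higher and 9.98% lower. Among 9 adherens junction genes tested, 1 was called higher and 0 lower. That gene was Cdh1 (E-cadherin), with 2, 1 and 3 counts in control and 22, 30 and 31 in KD libraries. It passed the low-count filter only through its KD counts. Its partner Ctnnd1 (p120 catenin) was far better covered and fell by 0.77 on the log2 scale. Among 5 desmosome genes tested, 1 was called higher and 0 lower: Ppl (periplakin), a linker of keratin filaments, rose from 61.3 ± 6.81 normalized CPM to 179 ± 8.39 (SD, n = 3 each).

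Of 8 epithelial regulators tested, 3 were called higher and 1 lower, against 10.2% and 9.98% of all genes tested. Of the 3, Grhl1 had 5, 2 and 1 counts in control and 18, 21 and 17 in KD libraries. Tfcp2l1 had 2, 4 and 2 against 88, 58 and 77. Both passed the low-count filter only through their KD counts. Grhl2, a factor known to activate Cldn4 and Cdh1, rose from 2.96 ± 0.684 normalized CPM to 9.88 ± 1.53 (SD, n = 3 each), or by 1.74 on the log2 scale (edgeR, adjusted p = 3.10e-11). Elf3, an epithelial ETS factor, fell from 9.23 ± 0.364 to 2.03 ± 0.416, a change of −2.18. Of 7 claudin repressors and mesenchymal genes tested, 0 were called higher and 1 lower, S100a4, a change of −1.20. Snai1, a repressor of Cldn1, Ocln and Cdh1, fell by 0.85 and Zeb2, a repressor of the same kind, rose by 0.43 on the log2 scale, and Vim, a mesenchymal filament, was abundant in both groups (3418 ± 49.8 and 3736 ± 79.7 normalized CPM, SD, n = 3 each). Of the other repressors and mesenchymal genes with a row, Snai2 had at most 1 count and Cdh2 at most 2 in any library. Zeb1 had a mean of 0.751 normalized CPM in control and 1.32 in KD libraries. Twist1 rose by 0.36 and Fn1 fell by 0.45 on the log2 scale. Cdh1, Ctnnd1, Grhl1, Tfcp2l1, Snai1, Snai2, Zeb1, Zeb2, Twist1, Fn1, Cdh2 and Vim were picked with their values in view.

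The calls of Cldn12 and Ocln were followed over 13 other fits. Ocln kept its direction and call in all 13, with a log2 fold change between −1.96 and −1.34. Cldn12 kept its direction in all 13, with a log2 fold change between 0.95 and 1.07, and was past the 2-fold threshold in 9.

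**Figure D5:**
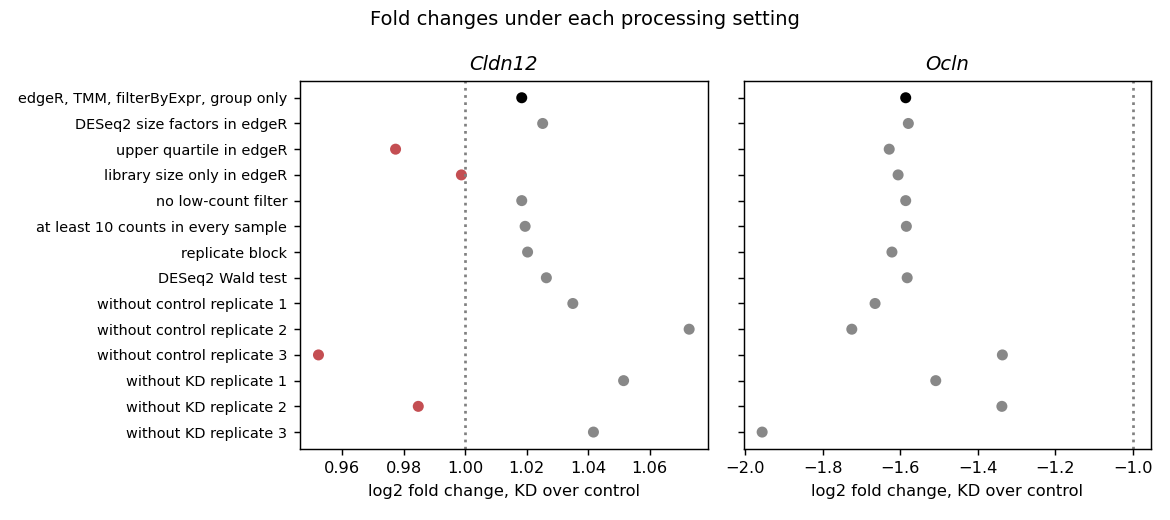
Log2 fold change of Cldn12 and Ocln (x axes, which do not start at 0) as reported (black, top row) and in 13 other fits, with a dotted line at a 2-fold change. Red points, 4 for Cldn12 and 0 for Ocln, lie short of that line.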

How the data were processed

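The authors trimmed adapters, mapped reads with HISAT2 (to hg19 in the study's methods, while hg38 and featureCounts stand in the submitters' processing notes) and deposited raw read counts per gene for 6 libraries. Annotation and use of strand are not given in the sources used here, so reads of close relatives such as Cldn6 and Cldn9 may be split. Of 6 columns, 0 were unused. In a chi-square test over genes, libraries of 1 group differed by at least 3.94 times what sampling noise gives, so none was a copy.

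The main test used edgeR 4.0.16 in R 4.3.3: filterByExpr (minimum count 10, minimum total 15), TMM, quasi-likelihood test with the group as the only term, and Benjamini-Hochberg adjustment over 13497 genes. The thresholds are those of the study's methods. Standard errors came from the ratio of each log2 fold change to the root of its F statistic. Normalized CPM use library totals over all genes, scaled by TMM factors. Alternatives were other scalings, filters and thresholds, each library left out, the replicate number as a block, and DESeq2 1.42.0. The pipeline was tested on simulated data. The members, gene lists and tests were chosen with earlier results of these data known. Genes named were the members, claudins with 100 or more counts throughout a group, called genes of the junction and regulator lists without overlap and with that many counts throughout the group where they were higher (up to 5 or 3 each way), and the most abundant markers. Others are said to be chosen after their values were seen, and this holds too for the low-count claudins, Esam and the marker genes given as absent or discordant. Values of 1 tested tight junction gene are not reported here, and it is not drawn, although the counts include it.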

Additional observations from a re-analysis of the deposited data

How the results depend on the processing

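The number of members called higher was 1 as reported. It was 0 with upper quartile scaling and with library size alone, 5 with no low-count filter (Cldn1, Cldn3, Cldn4 and Cldn7 besides Cldn12), 3 with DESeq2's Wald test (Cldn3 and Cldn4 besides Cldn12) and 2 with no fold threshold (Tjp1 besides). With each library left out it ranged from 0 to 1, and was 0 without control replicate 3 or KD replicate 2. The number called lower was 1 in every alternative. Among other tight junction genes, those called higher went from 1 to 6 with no low-count filter, 5 with DESeq2's Wald test, 0 with 10 or more counts per sample, 17 with no fold threshold and 3 with a test against a fold of 1.5, and those called lower went from 1 to 7 and 2 in the last 2. With each library left out, those called higher ranged from 1 to 5, the lowest without KD replicate 2 and the highest without control replicate 1. Over all genes, 4960 were lower and 4952 higher with no fold threshold, and 903 were higher with 10 or more counts per sample. The share of Cldn12 went from a difference of −0.524 to 0.151 percentage points with all claudin genes as the denominator. Vwf, an endothelial marker, changed from −0.03 to 0.20 without control replicate 1 and to 0.20 without KD replicate 3, with a lowest value of −0.22 without control replicate 3, and with the sign changed had an adjusted p of 0.799 and 0.787 (edgeR's quasi-likelihood test). Shares per length were not run, since no length of the counted genes was used. The replicate number does not pair the libraries: deviations of same-numbered libraries correlated at 0.0421, −0.0147 and −0.0214, and with the replicate block (log2 fold change of 1.02 for Cldn12 and −1.62 for Ocln) 1 member was called higher and 1 lower. Depth limits the claudins with few reads: control levels under 3 counts cannot be told from 0, and Cldn6 and Cldn7 reached 3 counts in 0 and 1 of the KD libraries.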
